A study of Danio rerio with 4 samples.

Results

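The 4 genes described here are the chemokine receptors ccr9a (ENSDARG00000055186) and ccr9b (ENSDARG00000099738) and the chemokine ligands ccl25a (ENSDARG00000115610) and ccl25b (ENSDARG00000070873), picked by symbol out of 25432 genes. They were measured in single GFP+ cells sorted from whole zebrafish embryos at 3 days post fertilization (3 dpf). All embryos carried the reporter labelled Tg(kdrl:EGFP)zf531Tg (the methods of the study name the allele s843), in which regulatory sequence of kdrl, an endothelial VEGF receptor gene, drives EGFP. There were 2 WT libraries, and 2 flt1mut libraries from embryos that also carried the flt1ka604 allele, a small deletion early in the coding sequence of flt1, which encodes a receptor that binds VEGF. Each library pooled many embryos, so p-values cover only the spread between libraries. Values of the libraries are given in the order WT replicate 1, WT replicate 2, flt1mut replicate 1, flt1mut replicate 2.

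Ccl25 is a chemokine made by the epithelium of the thymus and, in mammals, of the small intestine. Its receptor Ccr9 is a G protein-coupled receptor on the surface of early T cell progenitors, and the pair guides these cells from the circulation into the thymic rudiment. Zebrafish have an a and a b copy of both genes, and their thymus forms from endoderm of the pharyngeal pouches, where the transcription factor gene foxn1 marks its epithelium.

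Counts are of unique molecular identifiers (UMIs), each standing for an RNA molecule captured at its 3′ end. Called cells numbered 1190, 1389, 3261 and 1837, with 16828951 to 33837917 UMIs a library. Of these 7677 cells, 5191 passed the study's limits, which ask for over 200 genes, below 4500 genes, and a mitochondrial share below 5%. Libraries shared 0 to 4 cell barcodes. Kept cells fell into 19 clusters, built without the 4 genes and named X-like only where at least 3 markers of a cell type were enriched. WT replicate 1 stood apart in cluster 7, a group of epithelial-like cells with few UMIs (median 1842 per cell over all libraries). This cluster took 13.6% of the kept cells of WT replicate 1 and 1.37% of those of WT replicate 2. The deletion in flt1 lies away from the counted 3′ end, so the flt1 level (389, 303, 356 and 307 CPM, UMIs of a gene per 1000000 UMIs summed over the cells of a library, in endothelial-like cluster 1) does not check the genotype labels.

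ccr9a was the most abundant of the 4, with 32630 UMIs in 1806 kept cells (34.8%). ccr9b had 1735 UMIs in 560 cells (10.8%). The ligands were rare but concentrated: ccl25a had 846 UMIs in 86 cells (1.66%) and ccl25b 566 UMIs in 82 cells (1.58%). Cells with at least 10 UMIs of a gene held 92.4% of the UMIs of ccr9a (1130 cells), 86.3% of those of ccl25a (20 cells), 78.1% of those of ccl25b (16 cells) and 11.2% of those of ccr9b (16 cells). The highest count in a cell was 239 for ccr9a, 21 for ccr9b, 102 for ccl25a and 88 for ccl25b. Levels are mostly compared within a gene, and whether the 4 genes were captured alike was not tested. Paralogs can share reads, and that was not tested. In the RefSeq table of another assembly (GRCz12tu), the ccr9a gene model overlaps 7 protein-coding neighbours, and how such reads were assigned here is unknown.

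The receptors lay in lymphoid-like cells, with ccr9a also in granulocyte-like cells and in a blood progenitor-like cluster. Cluster 0, the lymphoid-like cluster (999 cells, 11 of 15 lymphoid markers enriched), held 64.2% of ccr9a UMIs and 76.4% of ccr9b UMIs. Its markers included rag1 and rag2, which cut antigen receptor genes for recombination, and zap70 and lck, kinases of T cell receptor signalling, at 53.1 ± 36.0, 12.2 ± 6.68, 16.8 ± 6.27 and 7.83 ± 4.31 CPM (mean ± SD, n = 4 libraries). The markers of mature T cells were at or near 0, since cd4-1 had 0 UMIs in these 999 cells and cd8a had 1. kdrl itself was at 1.73 ± 0.862 CPM in cluster 0 and at 1650 ± 417 CPM in endothelial-like cluster 1, so the lymphoid-like cells were sorted as GFP+ with almost no kdrl RNA.

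In cluster 0 the ccr9a level was 868, 1276, 1268 and 1088 CPM, and 87.7%, 95.2%, 98.5% and 96.0% of the cells held at least 1 ccr9a UMI. A ccr9a UMI was thus found in nearly every lymphoid-like cell of all 4 libraries, with a median of 19 UMIs per cell. Pooled, 956 of 999 cells had a ccr9a UMI (95.7%; exact 95% interval 94.2 to 96.9%; median 17391 UMIs per cell), beside 5 of 182 erythrocyte-like cells (2.75%; median 18911.5 UMIs), a cell type that should lack the gene. Intervals and limits from counts cover counting error only. With every cell thinned to 1000 UMIs, the share was 64.4% ± 6.79 in cluster 0 and 0 of 181 cells in the erythrocyte-like cluster.

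Dividing lymphoid-like cells (cluster 5, 350 cells, with 10 lymphoid and 8 cell cycle markers) came next, at 665, 903, 677 and 717 CPM and 62.9%, 80.6%, 62.7% and 66.7% of cells. ccr9a summed over all cells was lower there than in cluster 0 in each of the 4 libraries. Cluster 5 also held 117 cells without a ccr9a UMI, and over the cells with one its level was 1033, 1119, 1085 and 1041 CPM, within the range of 960.9 to 1298 CPM of such cells in cluster 0 (median 22 and 20 UMIs per cell). Leaving out cells without a ccr9a UMI raises a level by construction, and it left out 117 of 350 cells in cluster 5 but 43 of 999 in cluster 0. Why the sum over all cells was lower in cluster 5 was not tested. The cells of cluster 5 without ccr9a as a group had more RNA of red blood cell genes (given with the split of cluster 5). Granulocyte-like cells (cluster 14, 87 cells) had 483, 269, 918 and 298 CPM, and 93.8%, 90.9%, 97.1% and 76.0% of them held a ccr9a UMI. Blood progenitor-like cluster 6 (345 cells), which also had 3 macrophage markers, had 210, 446, 353 and 284 CPM, with 59.1 to 81.8% of cells positive. ccr9a was therefore found in most cells of the granulocyte-like cluster and of this blood progenitor-like cluster, as well as of the lymphoid-like ones. Blood progenitor-like cluster 3 was far lower, at 6.19 to 59.5 CPM.

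By mean level, ccr9a was ordered cluster 0 (1120 ± 192 CPM), 5 (741 ± 111), 14 (492 ± 300), 6 (323 ± 100) and 7 (205 ± 150). Clusters 0 and 5 were apart by more than their SDs, whereas 5, 14, 6 and 7 overlapped with their neighbours in that order. Of the 93 cells of cluster 7 with a ccr9a UMI, 70 came from WT replicate 1. They were 70.0% of its cells there, beside 6.67%, 15.8% and 9.09% in the other libraries. The 100 cells of cluster 7 in WT replicate 1 held 911108 UMIs of all genes, and the 77 in flt1mut replicate 2 held 135848. In flt1mut replicate 2 the ccr9a level of 309 CPM came from 42 UMIs, 36 of them in 1 cell. The part of free RNA in cluster 7 was not tested. In cluster 16 (47 cells), 19 cells (40.4%) held 35 ccr9a UMIs, all in flt1mut replicate 1 (127 CPM), at most 4 in a cell. This cluster was left unnamed, with 9 of 15 epithelial and 3 of 6 lymphatic markers enriched. In thrombocyte-like cluster 10, 44 of the 58 ccr9a UMIs came from 2 cells of WT replicate 1. In endothelial-like cluster 1 (677 cells, median 6517 UMIs), 34 ccr9a UMIs in 4.58% of cells gave 7.70 ± 3.49 CPM. The erythrocyte-like cells, which were deeper (median 18911.5 UMIs), had 1.02 ± 1.09 CPM (n = 3 libraries). Thinned to 1000 UMIs, 8 of 623 cells of cluster 1 held a ccr9a UMI, beside 0 of 181. Whether these few UMIs were expression or free RNA was not tested.

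**Figure D1:**
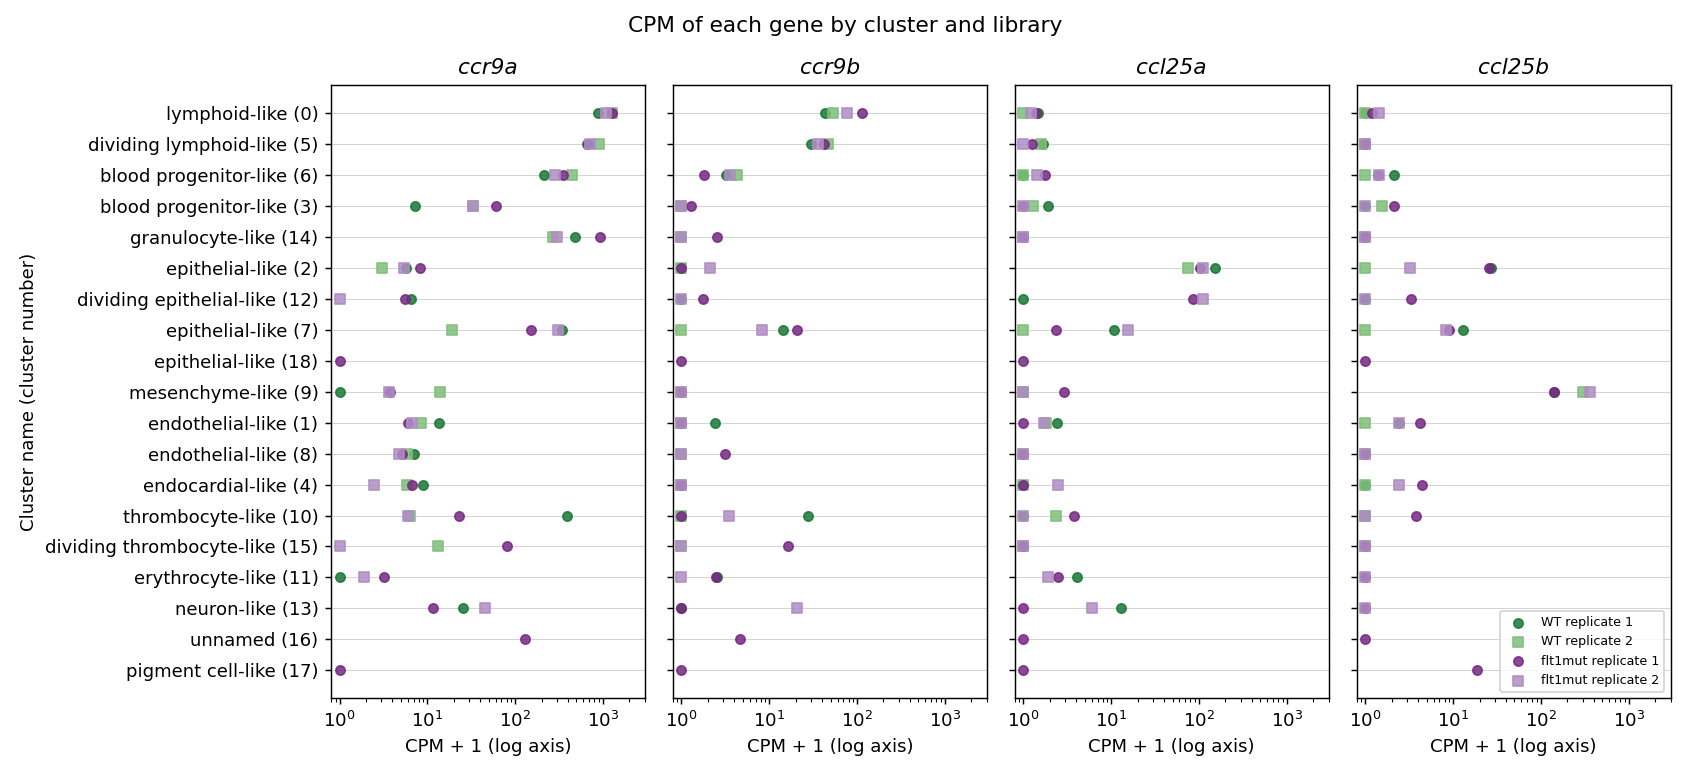
Each panel plots 1 gene: the x axis is CPM of the UMIs summed over the cells of a cluster, plus 1, on a log axis; the y axis lists the clusters; points are libraries with at least 10 cells of the cluster. ccr9a reaches 868 to 1276 CPM in cluster 0 and stays above 200 CPM in clusters 5, 6 and 14, ccr9b is high in clusters 0 and 5, ccl25a in clusters 2 and 12, and ccl25b in cluster 9.

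ccr9b was narrower than ccr9a. In cluster 0 its level was 42.2, 52.7, 113 and 75.1 CPM, and 34%, 32.8%, 51.5% and 39.6% of cells held a UMI. In cluster 5 it was 29.3, 45.8, 41.5 and 34.6 CPM, with 21.0 to 37.1% of cells. Clusters 0 (70.7 ± 31.1 CPM) and 5 (37.8 ± 7.33) overlapped within their SDs, and both stood above cluster 7 (10.1 ± 8.44). Pooled over libraries, 40.8% of the cells of cluster 0 held a ccr9b UMI, beside 1.1% of the erythrocyte-like cells, with the median depths given for ccr9a. In cluster 6, where ccr9a was in most cells, ccr9b had 21 UMIs in 345 cells (2.22 ± 1.06 CPM), and in granulocyte-like cluster 14 it had 1 UMI in 87 cells.

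The balance of the receptor copies therefore differed between the lymphoid-like clusters 0 and 5 and the blood progenitor-like and granulocyte-like clusters 6 and 14. Of all receptor UMIs, ccr9b took 4.64%, 3.97%, 8.16% and 6.45% in cluster 0 (5.80 ± 1.89%) and 4.85 ± 0.66% in cluster 5. It took 0.724 ± 0.358% in cluster 6 and 0.0415 ± 0.083% in cluster 14. Epithelial-like cluster 7 had 5.88 ± 5% (n = 3 libraries). WT replicate 1 had 6.38% in thrombocyte-like cluster 10, where 1 cell held 42 of the 44 ccr9a UMIs and 1 cell all 3 ccr9b UMIs. In dividing thrombocyte-like cluster 15, flt1mut replicate 1 had 16.1%. There, 1 cell held 25 of the 26 ccr9a UMIs and 1 cell all 5 ccr9b UMIs. The shares of clusters 7, 10 and 15 thus rested on few ccr9b UMIs. Whether a share like that of cluster 0 is particular to lymphoid-like cells was not settled. The libraries of clusters 0 and 5 did not overlap with those of clusters 6 and 14. These shares describe a pattern by which the genes were chosen, so no test was made.

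**Figure D2:**
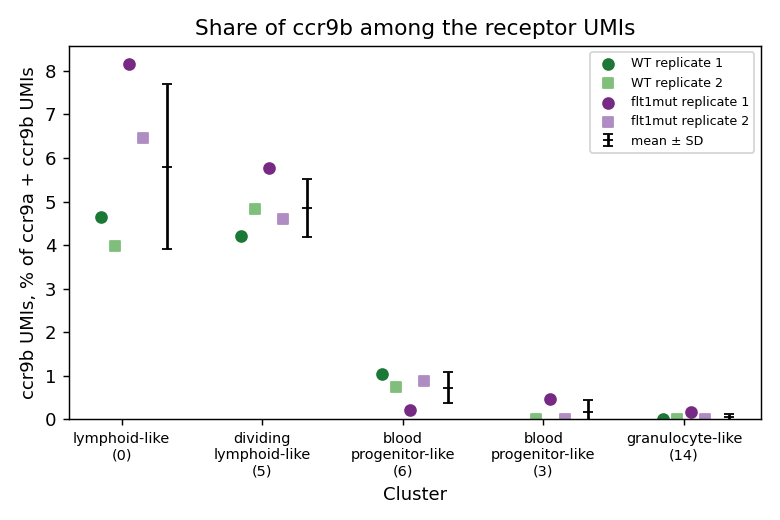
The y axis is the percent of ccr9a plus ccr9b UMIs that were ccr9b; the x axis gives 5 blood clusters; points are libraries with at least 20 receptor UMIs, and the black bar is their mean ± SD. The share lies between 3.97% and 8.16% in cluster 0 and at or below 1.05% in every plotted library of clusters 6, 3 (3 libraries) and 14.

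Both receptors were often found in the same cell. In cluster 0, 406 of the 408 cells with ccr9b also held ccr9a, and ccr9b was found in 42.5% of cells with a ccr9a UMI and 4.65% of those without. In cluster 5 the shares were 42.5% and 3.42%. Both receptors were chosen as genes of lymphoid cells, so the shares of both clusters are a description. Cluster 5 also held cells with red blood cell genes. Cells with ccr9a in cluster 0 had a median of 17460.5 UMIs and those without 13153, and how far this gap in depth adds to the joint detection was not tested. The splits after thinning, given with the tests, cannot decide it. Thinning also moves cells with a receptor UMI to the side without in each of these splits.

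Which other genes went with the receptors inside a cluster was tested by summing UMIs, in each library, over cells with and cells without a UMI of the receptor. In cluster 0, cells with ccr9b (408) were set against cells without (591). Cells with ccr9b had more RNA of genes of lymphocyte development. rag1 was 24.6, 100.2, 89.9 and 208 CPM with ccr9b and 0, 20.5, 1.37 and 11 CPM without (log2 fold change 3.55, SE 0.31, adjusted p = 1.64e-06, edgeR quasi-likelihood test with Benjamini-Hochberg adjustment). In single cells, rag1 was found in 20.8% of cells with ccr9b and 2.71% of those without. The recombination partner rag2 (1.94, SE 0.26), the kinases lck (2.89, SE 0.34) and zap70 (1.29, SE 0.22), the transcription factor gata3 (1.02, SE 0.11) and the IL-7 receptor gene il7r (1.16, SE 0.16) were also higher in all 4 libraries. So was ighv1-4, an immunoglobulin heavy chain variable gene (2.28, SE 0.30). Of 17 tested genes of a T lineage list, 10 were higher and 0 lower, with a median of 0.70 beside 0.00 over all genes. ccr9b was chosen as a gene of lymphoid cells, so higher lymphoid genes on its side are a description. A list of homing adhesion and signalling partners did not rise, with 1 of 14 tested genes higher and 3 lower (median -0.29). Of 6 tested cell cycle genes, 5 were higher, such as the replication helicase subunit gene mcm5 (0.83, SE 0.15).

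Lower in cells with ccr9b were 2 of 4 tested genes of an innate lymphocyte list, 2 of 7 other chemokine receptors, 1 of 3 other chemokines and 2 of 4 macrophage markers, and none of these lists had a higher gene. The chemokine ccl35.1 was 1.07, 0.871, 1.02 and 4.43 CPM with ccr9b and 30.6, 91.0, 34.8 and 50.5 CPM without. It was lower in all 4 libraries (log2 fold change -4.77, SE 0.32, adjusted p = 5.72e-08, edgeR with Benjamini-Hochberg adjustment). fcer1gl, which encodes an adaptor chain of Fc receptors (-4.32, SE 0.27), the chemokine receptor ccr10 (-4.30, SE 0.62) and eomesa, a T-box factor of natural killer cells (-2.10, SE 0.44), were lower in all 4 libraries. The cytokine il13 was lower in 3 of 4 libraries (-7.67, SE 0.50) and had no UMI on either side in WT replicate 1. The chemokine receptor cxcr4b was lower with ccr9b (-1.08, adjusted p = 6.81e-05, edgeR). In all, 255 genes (3.13% of 8139 tested) were higher and 325 (3.99%) lower, 7.13% together.

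In the same comparison ccr9a was 1124, 1355, 1323 and 1148 CPM in cells with ccr9b and 676, 1226, 1195 and 1040 CPM in cells without. It was higher in all 4 libraries by a small amount (log2 fold change 0.32, SE 0.07, adjusted p = 0.00944, edgeR with Benjamini-Hochberg adjustment). Since both receptors were chosen as genes of lymphoid cells, this difference is a description. Cells with ccr9b were deeper (median 19703 UMIs beside 15856), and with every cell thinned to 1000 UMIs before the split the ccr9a difference was 0.12 and the call was lost (adjusted p = 0.93, edgeR). Thinning left a ccr9b UMI in 56 of 975 cells, and cells that lost theirs joined the side without. The lost call thus cannot decide the part of depth, which was not tested. The thinned split called 125 genes, 25 higher and 100 lower, of which 98 were among the 580. Without WT replicate 2, flt1mut replicate 1 or flt1mut replicate 2 the count was 314, 382 and 308.

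**Figure D3:**
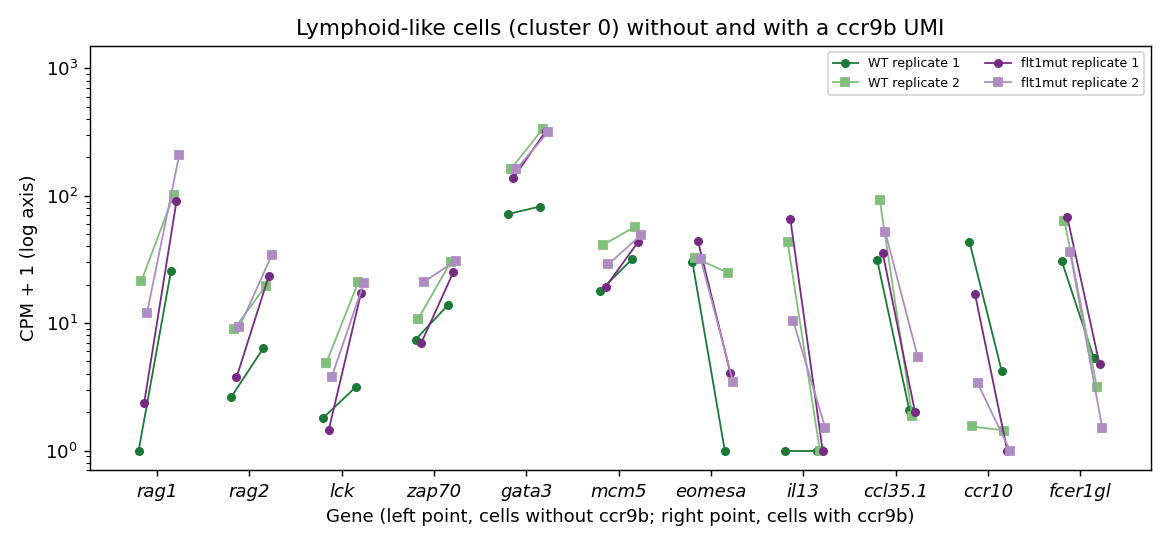
The y axis is CPM plus 1 on a log axis of summed UMIs of lymphoid-like cells in cluster 0; each line joins cells without (left) and with (right) a ccr9b UMI in 1 library, for the genes on the x axis. Lines for rag1, rag2, lck, zap70, gata3 and mcm5 rise in all 4 libraries and those for eomesa, ccl35.1, ccr10 and fcer1gl fall in all 4.

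Cells of cluster 0 without any ccr9a UMI were few (43 of 999), and flt1mut replicate 1 had too few for a sum, so 3 libraries were compared. ccr9b was 46.8, 53.5 and 77.0 CPM in cells with ccr9a and 0, 0 and 14 CPM in cells without, in WT replicate 1, WT replicate 2 and flt1mut replicate 2 (log2 fold change 3.75, SE 0.75, adjusted p = 0.000282, edgeR with Benjamini-Hochberg adjustment). Both receptors were chosen as genes of lymphoid cells, and the cells without ccr9a had little RNA of such genes, as given next. The ccr9b value is thus a description and no support for joint expression. gata3 was 83.4, 230.8 and 238 CPM with ccr9a and 0, 0 and 7.0 CPM without (6.22, SE 0.64), and id1, an inhibitor of basic helix-loop-helix factors, was also higher (4.82, SE 0.61). No rag1 UMI was found in cells without ccr9a, beside 63.5 CPM in cells with it, which is at least 9.29-fold higher against the limit of 3 UMIs over all cells without (adjusted p = 3.72e-05). Lower with ccr9a were meis1b, a factor of blood progenitors (-1.98, SE 0.39), and the lymphoid factor ikzf1 (-1.5, SE 0.32). Since ccr9a was chosen as a gene of lymphoid cells, the higher gata3 and rag1 on its side are a description.

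The ccr9a split called 46 genes higher (0.724% of 6351) and 22 lower (0.346%), 1.07% together, and 3 of 15 tested T lineage genes were higher and 1 lower. The ccr9b call was lost when cells were thinned before the split (0.61, adjusted p = 0.14, edgeR), without flt1mut replicate 2 (adjusted p = 0.056) and by DESeq2 (adjusted p = 0.17). The count was 29 without WT replicate 1, 15 without flt1mut replicate 2, and 8 by DESeq2.

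In dividing cluster 5 the same split parted cells with lymphoid genes from cells with genes of red blood cells. rag1 was 6.34, 16.5, 96.7 and 78.8 CPM in cells with ccr9a and 0 in all 4 libraries without, at least 55.5-fold higher against the limit of 3 UMIs over the cells without (adjusted p = 5.60e-05, edgeR with Benjamini-Hochberg adjustment). ccr9b was 45.5, 56.0, 64.5 and 50.1 CPM with ccr9a and 0, 3.01, 3.34 and 0 CPM without (log2 fold change 4.74, SE 0.41). Both receptors were chosen as genes of lymphoid cells, so a higher ccr9b on the side with lymphoid genes was set by that choice. The ccr9b value is thus a description and no support for joint expression. Of 12 tested lymphoid markers 10 were higher and 0 lower (median 2.99 beside 0.03 over all genes), and of 10 erythrocyte markers 10 were lower (median -6.77). ccr9a was chosen as a gene of lymphoid cells, so the higher rag1 and lymphoid markers on its side are a description. hemgn, an erythroid nuclear protein gene, was 3.17, 0.718, 0.806 and 0 CPM with ccr9a and 331, 120.5, 175 and 2.27 CPM without (-7.16, SE 0.29), and klf1, the master factor of globin genes, fell as well (-5.59, SE 0.56). The cluster named lymphoid-like by its markers thus also held dividing cells with red blood cell genes and no ccr9a UMI.

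Here 435 genes were higher (6.51% of 6684) and 390 lower (5.83%), 12.3% together. Of 12 tested homing adhesion and signalling partners 7 were higher and 1 lower (median 1.08 beside 0.03 over all genes). Of 2 tested genes of the innate lymphocyte list 2 were higher. Both sides were of like depth (median 25216 and 26135 UMIs). After thinning before the split, ccr9b differed by 1.17 and was not called (adjusted p = 0.091, edgeR). Without flt1mut replicate 1 the count was 337.

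In blood progenitor-like cluster 6, cells with ccr9a (230) had more RNA of granulocyte and macrophage genes than cells without (115). Lysozyme, lyz, was 750.3, 298, 349 and 656 CPM with ccr9a and 21.9, 0, 12.4 and 10.5 CPM without (log2 fold change 5.45, SE 0.21, adjusted p = 1.50e-09, edgeR with Benjamini-Hochberg adjustment). Of 6 tested granulocyte markers 5 were higher, and of 5 macrophage markers 3, among them the ETS factor spi1b (3.19, SE 0.17) and mpeg1.1, a perforin-like gene of macrophages, which had no UMI in cells without ccr9a (at least 17.6-fold). cybb, a subunit of the oxidase that makes superoxide in phagocytes, rose by 5.88 (SE 0.59). Among chemokine genes, the receptor cxcr3.2 (3.31, SE 0.24) and the ligands cxcl19 (4.98, SE 0.41) and ccl35.1 (4.97, SE 0.51) were higher. Of 11 tested homing adhesion and signalling partners 2 were higher and 0 lower (median 0.32).

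Genes of progenitors and of division went the other way in cluster 6. Of 7 tested blood progenitor markers 5 were lower and 1 higher (median -1.47 beside -0.01 over all genes), such as meis1b (-1.51, SE 0.21) and gata2b (-1.27, SE 0.23), and of 6 tested cell cycle genes 6 were lower (median -0.78). Of 7 T lineage genes 0 were higher and 3 lower, and rag1 had no UMI in the 345 cells. The split called 426 genes higher (6.82% of 6250) and 304 lower (4.86%), 11.7% together. The count was 438, 385 and 406 without WT replicate 1, flt1mut replicate 1 and flt1mut replicate 2, and 120 after thinning, of which 105 were among the 730.

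The ligand ccl25a lay in epithelial-like cells. Cluster 2 (513 cells, 8 of 15 epithelial markers enriched) held 640 of the 846 UMIs, and its level was 153, 73.5, 103 and 109 CPM. Dividing epithelial-like cluster 12 held 166 UMIs, all in flt1mut libraries (109 in 3 cells and 57 in 2 cells), while WT had 16 cells there. Clusters 2 (110 ± 32.9 CPM) and 12 (64.7 ± 57.6, n = 3) overlapped within their SDs, and outside them no cluster had over 12 UMIs. Few cells carried the gene: 7 of 39, 4 of 39, 23 of 299 and 9 of 136 cells in cluster 2, or 17.9%, 10.3%, 7.69% and 6.62%, with exact 95% intervals of 7.54 to 33.5, 2.87 to 24.2, 4.94 to 11.3 and 3.07 to 12.2%. Pooled, 8.38% of cluster 2 held ccl25a (median 11102 UMIs per cell), beside 1.65% of erythrocyte-like cells.

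foxn1 was found in only 8 of 5191 kept cells, and 5 of these 8 held ccl25a, beside 1.56% of the cells without foxn1. Of the 8, 7 lay in cluster 2, the cluster with most ccl25a. There foxn1 was found in 9.3% of cells with ccl25a and 0.638% of those without. Cells of cluster 2 with both genes numbered 2, 0, 1 and 1 in the libraries. In cluster 2 the pharyngeal pouch factor genes pax1b (64.6, 116, 48.5 and 48.9 CPM) and pax9 (14.4, 24.5, 36.3 and 13.9 CPM) were present, as was eya1, a transcriptional cofactor needed for pharyngeal organs (110, 112, 33.0 and 45.6 CPM). eya1 was found in 131 of the 513 cells and ccl25a in 43, so both were in a minority of the cluster.

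Cells of cluster 2 with a ccl25a UMI (43) were set against those without (470), with as few as 4 cells in a library's sum. Cells with ccl25a had more RNA of other chemokines and of the cytokine il15. cxcl8a, a neutrophil attractant, was 887, 162, 554 and 405 CPM with ccl25a and 65.8, 2.18, 29.9 and 24.2 CPM without (log2 fold change 4.14, SE 0.30, adjusted p = 2.47e-07, edgeR with Benjamini-Hochberg adjustment). il15, a growth factor of lymphocytes, was 59.9, 129.6, 31.0 and 13.7 CPM with ccl25a and 0, 0, 1.95 and 0.605 CPM without (4.93, SE 1.11, adjusted p = 0.0159). cxcl12a, the ligand of Cxcr4, was 1402, 551, 388 and 962 CPM with ccl25a and 23.9, 277, 166 and 88.3 CPM without (2.66, SE 0.50). All 3 were higher in cells with ccl25a in every library. In single cells, il15 was found in 27.9% of cells with ccl25a and 1.49% of those without, and cxcl12a in 67.4% and 21.5%.

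Of 4 tested chemokines other than ccl25, 4 were higher with ccl25a, cxcl8b.1 (3.04, SE 0.70) and cxcl18b (1.75, SE 0.28) included. Of 5 tested genes of a thymic epithelium list, 3 were higher (il15, cxcl12a and eya1, which rose by 2.09, SE 0.32), while six1b (1.27, adjusted p = 0.11) and pax1b (-0.46, adjusted p = 0.64) were not called. The list's median was 2.09, beside -0.07 over all genes. foxn1 was too low to test. Of 6 tested cell cycle genes 3 were lower, such as the replication clamp gene pcna (-1.84, SE 0.34). sost, a Wnt inhibitor gene (-5.21, SE 0.74), and the oral and pharyngeal patterning genes barx1 (-4.91, SE 0.80) and pitx1 (-4.82, SE 0.82) were lower in all 4 libraries. Depth was close on both sides (median 11701 and 11061 UMIs).

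The other ligand was also higher with ccl25a in this cluster, but on few cells. ccl25b was 132, 0, 104.7 and 27.5 CPM in cells with ccl25a and 0, 0, 18.2 and 0 CPM in cells without (3.80, SE 0.81, adjusted p = 0.0119, edgeR with Benjamini-Hochberg adjustment). It was higher in 3 of 4 libraries, with no UMI in WT replicate 2. In WT replicate 1 and flt1mut replicate 2 its 11 and 4 UMIs lay in 1 cell each. Only 6 cells of cluster 2 held both ligands. Both were chosen as genes of epithelial cells, so the ccl25b value is a description and no support for joint expression. The call was lost by DESeq2 (adjusted p = 0.31) and without the 5% of cells with most UMIs (adjusted p = 0.097). The split called 97 genes higher (2.61% of 3713) and 75 lower (2.02%), 4.63% together, and the count was 21 without flt1mut replicate 1 and 46 without flt1mut replicate 2.

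**Figure D4:**
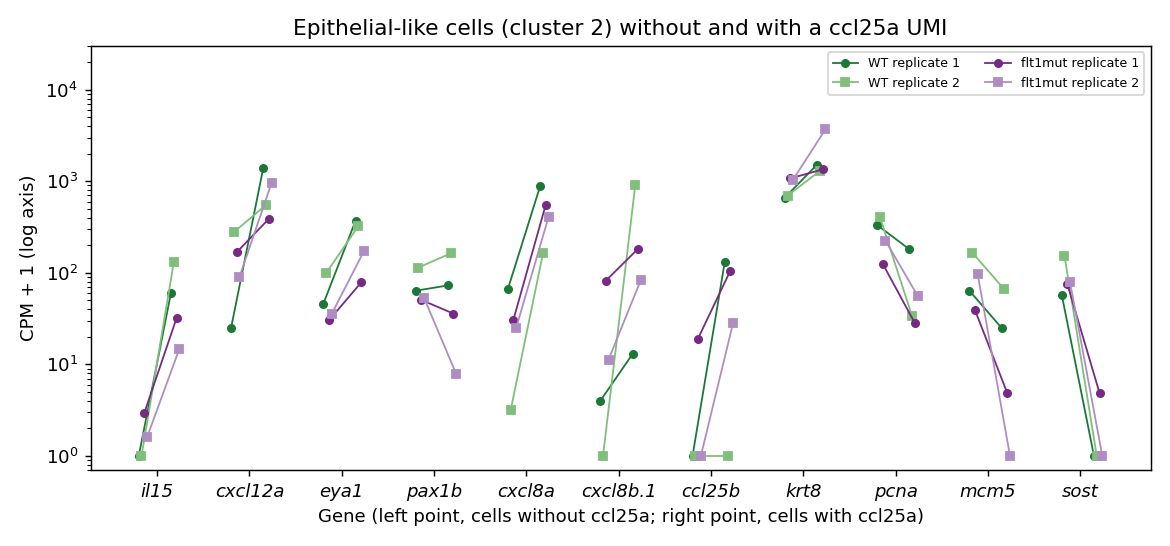
The y axis is CPM plus 1 on a log axis of summed UMIs of epithelial-like cells in cluster 2; each line joins cells without (left) and with (right) a ccl25a UMI in 1 library, for the genes on the x axis. il15, cxcl12a, eya1, cxcl8a, cxcl8b.1 and krt8 rise in all 4 libraries, ccl25b in 3, pax1b in 2, and pcna, mcm5 and sost fall in all 4.

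Most ccl25b was not in epithelial-like cells. Mesenchyme-like cluster 9 (191 cells, 9 of 10 mesenchyme markers enriched, led by cartilage genes such as col2a1a) held 419 of the 566 UMIs (74.0%), 39, 95, 152 and 133 in the libraries, and epithelial-like cluster 2 held 98, as 11, 0, 83 and 4. Its level in cluster 9 was 142, 305, 142 and 359 CPM (237 ± 112), apart by more than the SDs from cluster 2 (13.4 ± 14.2). In cluster 9, 14.3%, 21.4%, 14.4% and 13.2% of cells held a UMI. Pooled this was 15.2% (median 9133 UMIs per cell), beside 0 of 182 erythrocyte-like cells, which allows a share of up to 1.65% by the limit of 3 counts. Of the 29 cells with ccl25b in cluster 9, 0 held ccl25a and 0 held foxn1. By these counts only ccl25a lay for the most part in epithelial-like cells.

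Inside cluster 9, cells with ccl25b (29) differed from those without (162) in the cartilage genes matn1 and epyc and in the secreted modulator sfrp2. matn1 and epyc, which encode cartilage matrix proteins, had 0 UMIs in cells with ccl25b, beside 8307 and 6225 UMIs in cells without, and were at least 346-fold and 260-fold lower at the limit of 3 UMIs over all cells with (adjusted p = 1.63e-05 and 1.71e-05, edgeR with Benjamini-Hochberg adjustment). sfrp2, a secreted modulator of Wnt, was 1455, 1560, 476 and 4997 CPM with ccl25b and 195, 98.7, 102 and 262 CPM without (3.18, SE 0.42, adjusted p = 0.00115). cdh11, a cadherin of mesenchymal cells, was 624, 1766, 466 and 1815 CPM with ccl25b and 63.7, 94.8, 76.1 and 192 CPM without (3.17, SE 0.41). The cells with ccl25b were thus mesenchyme-like cells without the cartilage genes that led the cluster.

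Of 9 tested mesenchyme markers 4 were higher and 0 lower (median 1.32 beside -0.16 over all genes), 3 of 11 pan-endothelial markers were lower and 0 higher (median -1.77), and the fibrillar collagen gene col1a1b was higher too (2.05, SE 0.35). cxcl12a was 5822, 1217, 2270 and 1438 CPM with ccl25b and 27.9, 679, 132 and 464 CPM without, higher in all 4 libraries but not called (3.07, SE 0.82, adjusted p = 0.079, edgeR). Of 8 tested thymic epithelium genes 0 were higher and 1 lower. Cells with ccl25b were shallower (median 7478 UMIs beside 10056). The split called 22 genes higher (0.679% of 3242) and 69 lower (2.13%), 2.81% together, and 48, 51 and 29 without WT replicate 1, WT replicate 2 and flt1mut replicate 1.

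The genes whose levels ran most like each member were found by Pearson's r of log2(CPM + 1) over 63 sums of a cluster in a library, among 14653 genes, as a description, since sums of a library share its depth and sums of a cluster its cells. For ccr9a they were arhgef3l (0.902), agap2 (0.892), csf1rb (0.892), tmc8 (0.882) and coro1a (0.880). csf1rb encodes a receptor of a myeloid growth factor and coro1a an actin-binding protein of leukocytes. For ccr9b they were zap70 (0.865), cd226 (0.852), BX120005.2 (0.840), cytip (0.836) and si:ch211-112c15.8 (0.829). For ccl25a they were the hedgehog ligand shhb (0.847), abi3b (0.811), the anchoring fibril collagen gene col7a1l (0.807), fhdc4 (0.802) and cyp26a1, which degrades retinoic acid (0.793). For ccl25b they were htra1a (0.871), the Wnt modulator sfrp1a (0.857), the BMP antagonist chrd (0.854), sfrp2 (0.843) and col2a1a (0.840), although col2a1a was low in the cells of cluster 9 that held ccl25b (log2 fold change -9.18, SE 0.46).

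The study compared WT and flt1mut embryos, and the 4 genes were tested in the cluster that held most of each. No member differed between genotypes after adjustment in that cluster or over all kept cells. In cluster 0, ccr9a at the levels given above had a log2 fold change of flt1mut over WT of 0.04 (SE 0.20, adjusted p = 0.97, edgeR with Benjamini-Hochberg adjustment), and leaving out WT replicate 1 or flt1mut replicate 1 turned it to -0.20 and -0.09. ccr9b was higher in both flt1mut libraries (112.6 and 75.1 CPM) than in both WT libraries (42.2 and 52.7 CPM), by 0.88 (SE 0.27, unadjusted p = 0.0137, adjusted p = 0.545, edgeR), and over 14 fits in that cluster or its counterparts the difference stayed between 0.54 and 1.16 with no adjusted p under 0.05. The groups did not overlap for ccr9b, as was so for 39.6% of all tested genes, so the gap is not a result about ccr9b.

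In cluster 0, 8 genes of 9256 were called (0.0864%), all higher in flt1mut, among them si:ch211-121a2.2 (4.40, SE 0.29) and the sulfotransferase gene sult1st1 (2.10, SE 0.23), and 0 of 18 tested T lineage genes and 0 of 8 other chemokine receptors. The one-way direction did not hold in other fits, with 37 higher and 50 lower under the replicate block and 25 higher and 13 lower by DESeq2. The count was 204 (108 higher, 96 lower), 90, 23 and 63 when each library was left out in turn, with the lone library of a genotype then assumed to vary like the others.

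In cluster 2, ccl25a had a log2 fold change of -0.10 (SE 0.37, adjusted p = 0.94, edgeR with Benjamini-Hochberg adjustment), and 0.66 without WT replicate 1. ccl25b there was 26.3, 0, 24.9 and 2.22 CPM (0.24, SE 1.3, adjusted p = 0.96). The groups overlapped for both ligands, while 44.8% of tested genes had groups that did not. Of 6638 genes 1 was called (0.0151%), si:ch211-121a2.2, and of 10 tested thymic epithelium genes 0. The count was 0 without either WT replicate, 84 without flt1mut replicate 1 and 86 without flt1mut replicate 2.

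In cluster 9, ccl25b had a log2 fold change of 0.08 (SE 0.50, adjusted p = 1.00, edgeR with Benjamini-Hochberg adjustment) with groups that overlapped, which turned to -0.21 without WT replicate 1 and -0.45 without flt1mut replicate 2. Of 4099 genes 0 were called (0%) by edgeR and 0 by DESeq2, with 168 and 110 at an unadjusted p under 0.05, and 24.6% had groups that did not overlap. With 2 libraries a genotype, and 39 cells of cluster 2 and 28 of cluster 9 in each WT library, small differences could not be seen at this depth.

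Over all kept cells the ligands were higher in both flt1mut libraries than in both WT libraries. ccl25a was 6.48, 2.0, 16.6 and 13.8 CPM (log2 fold change 1.72, SE 0.59, unadjusted p = 0.034, adjusted p = 0.409, edgeR with Benjamini-Hochberg adjustment) and ccl25b 5.12, 4.91, 9.29 and 7.6 CPM (0.62, SE 0.25, adjusted p = 0.462). ccr9b did not overlap between genotypes either (0.46, adjusted p = 0.601), whereas ccr9a did (-0.26, adjusted p = 0.767). Groups did not overlap for 44.3% of the 15195 genes tested, and 0 genes (0%) were called by edgeR, with 1669 at an unadjusted p under 0.05. Epithelial-like cluster 2 took 5.29%, 3.57%, 14.5% and 10.5% of the kept cells of the libraries, and its part in the ccl25a difference was not tested.

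**Figure D5:**
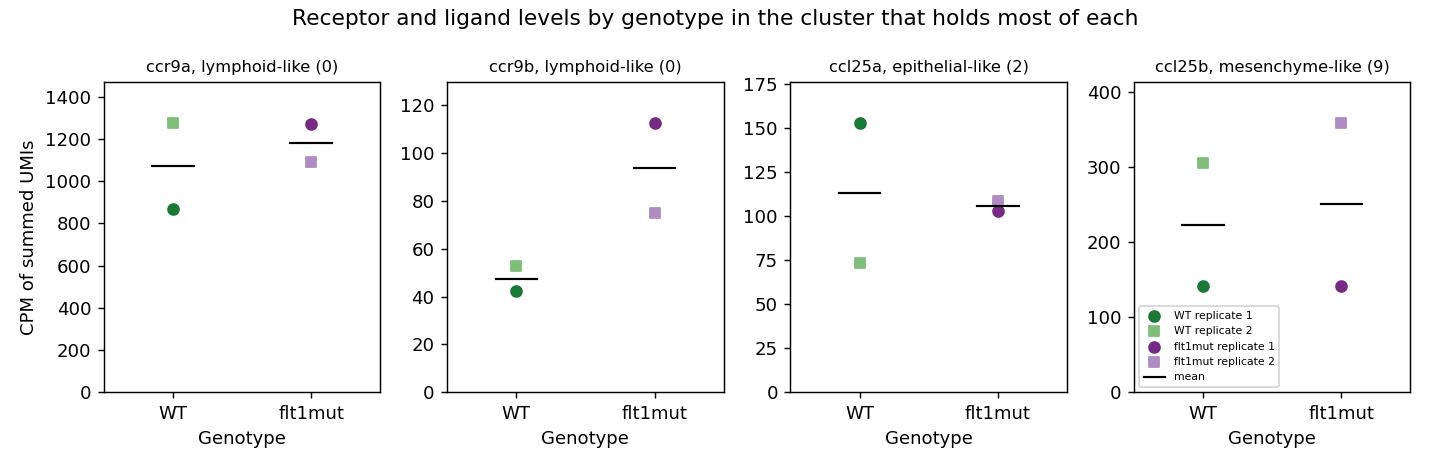
The y axis is CPM of summed UMIs, from 0; each panel gives 1 gene in the cluster that holds most of it, points are libraries and the black line is the mean of a genotype. The points of WT and flt1mut overlap for ccr9a, ccl25a and ccl25b, and for ccr9b both flt1mut points (112.6 and 75.1 CPM) lie above both WT points (42.2 and 52.7 CPM).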

How the data were processed

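GFP+ cells of 3 dpf embryos were profiled by droplet 3′ RNA sequencing (10x Genomics), for which paper and labels name different chemistry versions. The authors made the deposited UMI counts with Cell Ranger 6.1.1 on GRCz11, unnormalized, each file holding 1 library. Genes were matched by symbol. Cells were filtered as in the paper. Clustering used Seurat 5.3.0 (R 4.3.3), scale factor 10000, 2000 variable genes less the 4 members, 20 principal components and resolution 0.5, with no integration or doublet removal. A marker counted as enriched at a mean of 2 times that of the other clusters and in at least 10% of cells. UMIs were summed per library over at least 10 cells (4 for the ligand splits), passed through filterByExpr and TMM scaling, and compared in edgeR 4.0.16 (quasi-likelihood F-test, two-sided), with library as a block in splits of cells and genotype alone between WT and flt1mut. Each SE came from dividing the absolute log2 fold change by the root of F. Benjamini-Hochberg adjustment ran over every tested gene, and calls needed an adjusted p below 0.05. CPM used total UMIs, and means over libraries needed at least 10 cells. DESeq2 1.42.0, other filters, resolutions, thinning and left-out libraries were alternatives. The fits were first run on simulated counts with a fixed spread and the depth of cluster 0. Sums of cells with a ligand were far shallower, so this does not check the ligand splits. Members and lists were chosen with earlier results of these data known, and the splits by ccr9b and ccl25b, those in clusters 5 and 6, the genotype tests in cluster 9 and over all kept cells and the minimum of 4 cells were added after values were seen. Named genes were the members, list genes past the threshold, and up to 10 genes a direction with the largest change of the same sign in every library.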

Additional observations from a re-analysis of the deposited data

Results flagged for a closer look

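Called cells that failed the limits on genes or mitochondrial counts (2486 cells, of which 231 had more genes than the upper limit) were used in no comparison, and they still held UMIs of all 4 genes. They had 4617 ccr9a UMIs in 396 cells, 179 ccr9b UMIs in 87 cells, 222 ccl25a UMIs in 27 cells and 138 ccl25b UMIs in 29 cells. The cells above the upper limit of genes alone gave 2569 of the ccr9a, 95 of the ccr9b, 122 of the ccl25a and 4 of the ccl25b UMIs.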

How the results depend on the processing

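Levels, splits and the genotype tests were recomputed 1 choice at a time, and shares only at a second thinning depth. Of these recomputed values 182 kept their direction and call or stayed close, 68 moved, 9 lost a call and 13 changed sign, and all 13 are genotype differences of members that were not called. The ccr9a split of cluster 0 could not be fitted at resolution 1, with members among the variable genes or without the 5% of cells with most UMIs, nor that of cluster 6 at resolution 0.3, since 0 libraries had enough cells on both sides. Causes were not tested. At resolution 0.3, ccr9a was 870.1 CPM in the cluster with most of it, its split there called 1931 genes and the genotype test 14. At resolution 1, ccl25a was 152.7 CPM and ccl25b 380.3 CPM in the cluster with most of each. The genotype test then called 1 gene in the ccr9a cluster, ccl25a differed by 0.26 between genotypes, and the splits by ccr9b, by ccr9a in cluster 6 or its counterpart, by ccl25a and by ccl25b called 124, 32, 66 and 21 genes. With members among the variable genes, ccl25a was 153.4 CPM and differed by 0.26, the genotype test called 1 gene, and the ccr9b, cluster 6 and ccl25a splits called 336, 67 and 68. Thinned to 2000 UMIs in place of 1000, the shares of cells were 78.8% for ccr9a, 12.8% for ccr9b and 6.72% for ccl25a, up from 64.4%, 5.63% and 2.66%.

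DESeq2 called 38 and 46 genes between genotypes in the ccr9a and ccl25a clusters, and 8, 209, 415 and 283 in the splits by ccr9a, by ccr9b, and by ccr9a in clusters 5 and 6. Without a filter on low counts, 231, 290 and 48 genes were called between genotypes in the ccr9a, ccl25a and ccl25b clusters, ccl25a differed by 0.085, and the ccr9a and ccl25b splits called 116 and 250. Splitting after thinning to 1000 UMIs called 12, 125, 220 and 120 genes in the same 4 receptor splits. With the wider cell filter (under 10% mitochondrial counts, no upper limit of genes) the ccr9a splits in the counterparts of clusters 5 and 6 called 2218 and 100, and the ccl25a and ccl25b splits 73 and 58. Without the 5% of cells with most UMIs, ccl25a was 150.3 CPM and differed by 0.36, and the ccr9a splits of clusters 5 and 6 and the ccl25a split called 470, 303 and 34. Counting cells from 2 ccl25a UMIs gave 83 genes.

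Replicate numbers are shared by the genotypes, but no label says that they pair libraries, and there are only 2 numbers. Deviations of same-numbered libraries correlated at 0.412, 0.301 and 0.287 in the ccr9a, ccl25a and ccl25b clusters. With the replicate block, 87 genes were called in the ccr9a cluster and 140 in the ccl25a cluster, which held all 8 and the 1 called without it, and no member was called.

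Leaving out each library in turn, the genotype test called 23 to 204, 0 to 86 and 0 genes in the 3 clusters. The receptor splits called 15 to 53 (ccr9a), 308 to 807 (ccr9b), 337 to 698 (ccr9a, cluster 5) and 385 to 752 (ccr9a, cluster 6), and the ligand splits 21 to 146 (ccl25a) and 29 to 69 (ccl25b). The genotype difference then ranged from -0.20 to 0.33 for ccr9a, from -0.55 to 0.66 for ccl25a, from -0.45 to 0.51 for ccl25b in cluster 9, and from -2.50 to 7.79 for ccl25b in cluster 2, where it was -0.86 without WT replicate 2. Without WT replicate 1 and flt1mut replicate 1 the ccr9a difference was -0.20 and -0.09, and without WT replicate 1 and flt1mut replicate 2 that of ccl25b in cluster 9 was -0.21 and -0.45. The planned ccl25a split at 10 cells a sum was not run, since only 1 library had that many, nor was its split after thinning. Over all kept cells, an alternative added after seeing the data, the genotype test called 0 genes, and ccr9a differed by -0.26 and ccl25a by 1.72. With 86 and 82 kept cells holding a ligand UMI, differences of the ligands between genotypes are limited by cell number.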

Other observations

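Other chemokine receptors shared cells with ccr9 at levels of their own. cxcr4b, the receptor of Cxcl12, was 189, 218, 355 and 466 CPM in lymphoid-like cluster 0 and 238, 391, 497 and 528 CPM in blood progenitor-like cluster 6, and it was also high in endothelial-like cluster 1 (355 ± 74.1 CPM). cxcr3.2 was lower in cluster 0 (41.4 ± 7.25 CPM) than in cluster 6 (216 ± 82.0 CPM). ccr7, which guides lymphocytes to lymphoid tissue in mammals, was 7.35, 3.36, 17 and 4.16 CPM in cluster 0, and s1pr4, a sphingosine phosphate receptor gene of lymphocytes, was 47.1 ± 16.5 CPM there. The chemokine cxcl12a was highest among these clusters in the mesenchyme-like cells (556 ± 183 CPM), beside 234 ± 73.1 CPM in epithelial-like cluster 2 and 144 ± 51.9 CPM in endothelial-like cluster 1.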
